A study of Mus musculus with 2 samples.

Results

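The Egr, Nr4a and Nfat transcription factors were compared between 2 RNA samples described as mouse lymph node. Of these, 1 was labelled as invariant natural killer T (NKT) cells and 1 as conventional CD4 T cells, a label that some markers below go against. The 9 members were chosen by gene symbol: Egr1, Egr2 and Egr3, Nr4a1, Nr4a2 and Nr4a3, and Nfatc1, Nfatc2 and Nfatc3. On the deposited value table, 15 of 11866 probes carried these symbols and covered 8 members of the 8116 genes named there. These were 3 Egr probes for 3 genes, 3 Nr4a probes for 2 genes and 9 Nfat probes for 3 genes. No probe of the value table carried the symbol Nr4a1, and the other deposited table gives no gene names, so Nr4a1 was not analysed here.

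Both groups are described as sorted from lymph nodes of female mice kept free of specific pathogens, with magnetic beads or by fluorescence. One group is labelled conventional CD4 T cells and the other type 1 invariant NKT cells, whose nearly invariant T cell receptor sees lipids on CD1d. Strain, age, the number of mice and the sort used for each group are not given in the sources used here. Each group had 1 Illumina bead array, so values stand without replicates, the groups could not be tested against each other, and the number of arrays limits the precision. The libraries are called labelled CD4T and labelled iNKT after these labels. All levels are log2 signals from the value table, and every difference is the library labelled iNKT minus the library labelled CD4T. A probe counted as detected at 7.83 or above, the lowest level that had a detection p under 0.01. A difference of 2-fold or more (1 on the log2 scale) was called, and a member detected in 1 library got a lower bound against that level. The only measure of error came from genes with 2 detected probes, whose log2 differences varied within a gene with an SD of 0.588 over 1436 genes. It does not cover variation between mice, sorts or arrays.

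The Egr, Nr4a and Nfat factors carry T cell receptor signals into the nucleus. Calcium entry activates the phosphatase calcineurin, which strips phosphates from Nfat proteins so that they enter the nucleus. The Ras and MAP kinase branch drives transcription of Egr1 within minutes. Nr4a genes are also induced quickly, and Nr4a1 reporters are widely used to read recent receptor signals. In mouse NKT cells Egr2 is known to be needed for development, and Nfat proteins are regulated mostly in their location rather than their transcript level.

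The labels did not hold for every marker. Of the 9 NKT1-type markers on the table, 8 were called higher and 0 lower in the library labelled iNKT, and their summed linear signal was 61754 against 12662. All 7 naive T cell markers on the table were called lower, with a sum of 9845 against 100152. None of the 7 T cell identity markers was called at its probe with the highest mean signal. Another probe of Zap70 was higher in the library labelled iNKT, by 2.55, while its remaining probe did not reach 2-fold. Cd4 itself measured 9.61 in the library labelled CD4T and 8.997 in the other, and was not called. Cd8b1, the CD8 beta chain, measured 15.60 in the library labelled CD4T and 9.33 in the other, and the sum over 3 CD8 T cell markers was 61187 against 1008. The Y-linked gene Eif2s3y, a marker chosen after its values were seen, measured 11.55 and 8.998 although both samples are labelled female. Red cell markers summed to 74606 in the library labelled iNKT against 1241, with 3 of 3 called higher. Hepatocyte markers summed to 9905 against 762, with 5 of 5 higher and none detected in the other library. Both samples are described as lymph node, a source that the hepatocyte transcripts in the library labelled iNKT go against. Monocyte and macrophage markers summed to 19763 against 4300 (2 of 3 tested higher, 1 lower), or 1303 against 879 without Cebpb, neutrophil markers to 2240 against 617 (1 of 4 higher), and B cell markers to 781 against 1538 (1 of 3 lower). The part of these cells in the differences below was not tested. In such bulk RNA, fewer cells of a type and less RNA per cell cannot be told apart.

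The 2 deposited tables also disagree for the sample labelled invariant NKT. Its value column followed its own non-normalized column with a rank correlation of 0.8224 across probes and the column of the other sample with 0.8233, whereas the column of the library labelled CD4T followed its own with a rho of 1. The 2 non-normalized columns were nearly equal, and 0 of 25697 probes differed 2-fold between them. Differences below therefore rest on 1 value column whose origin is unsettled. The difference of each member probe in both tables is plotted side by side below.

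Among the 6 members detected in 1 or both libraries, 2 were called higher in the library labelled iNKT (Nfatc3 and Nr4a2) and 1 was called lower (Egr2). Over all 7278 genes detected in 1 or both libraries, 9.37% were called higher and 10.3% lower. The share of called members was not tested against that background, and 6 genes are too few to read a share from. By probe, 2 of the 11 detected in 1 or both libraries were called higher and 1 lower, beside 9.8% and 9.7% of all 10531 detected probes. The remaining measured members, Egr3 and Nfatc2, lay below the detection level in both libraries. Each of the 3 called members was measured by 1 probe.

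**Figure D1:**
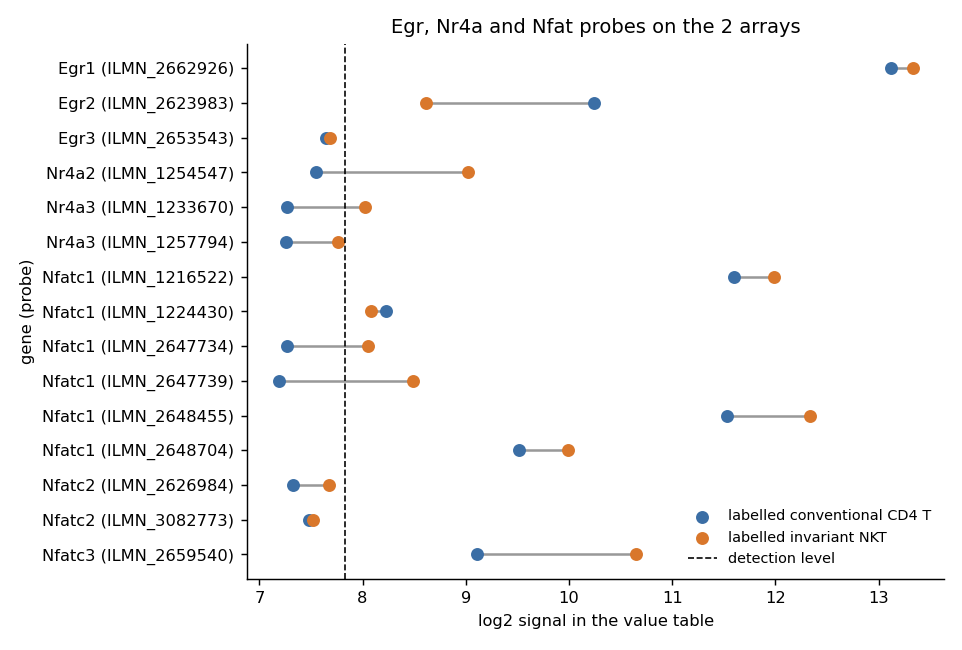
Log2 signal of each of the 15 member probes in the value table (x axis), with 1 point for each library and a line joining the 2 libraries. The dashed line is the detection level of 7.83. Nfatc3 and Nr4a2 lie higher in the library labelled iNKT, Egr2 lies lower, and the Egr3 and Nfatc2 probes lie left of the detection level in both libraries.

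Promoter sequence is shown for the 3 members called in the value table, and for Nr4a3, the measured relative of Nr4a2. RefSeq promoter windows (GRCm38.p6) were searched for 6 of the 9 members, in 12 windows, over the 250 bases before each start on both strands. Egr1, Egr3 and Nfatc1 were not searched, and members' windows on a single chromosome were left out before the search. The motifs were the core of the cyclic AMP response element, TGACG, the complete element TGACGTCA, the Egr motif GCGNGGGCG, the Nr4a motif AAAGGTCA, the Nfat core GGAAA and the serum response factor motif called the CArG box. The complete element holds the core on each strand, so those matches overlap. Capitals below mark cores, Egr motifs and CArG boxes, and Nfat cores are left in lower case because 55.6% of all 32851 windows hold one.
Nr4a2, chr2:57124004-57124253, minus strand: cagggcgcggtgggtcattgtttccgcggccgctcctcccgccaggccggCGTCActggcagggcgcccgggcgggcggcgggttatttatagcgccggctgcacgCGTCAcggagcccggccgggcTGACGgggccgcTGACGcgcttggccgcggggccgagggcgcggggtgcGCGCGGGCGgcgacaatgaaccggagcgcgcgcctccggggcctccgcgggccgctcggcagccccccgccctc
Nr4a3, chr4:48045055-48045304, plus strand: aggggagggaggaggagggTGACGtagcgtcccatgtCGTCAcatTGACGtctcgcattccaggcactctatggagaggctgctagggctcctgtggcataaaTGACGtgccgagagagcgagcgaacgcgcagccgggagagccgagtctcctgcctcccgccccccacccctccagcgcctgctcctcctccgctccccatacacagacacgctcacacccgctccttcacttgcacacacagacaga
Nfatc3, chr8:106058568-106058817, plus strand: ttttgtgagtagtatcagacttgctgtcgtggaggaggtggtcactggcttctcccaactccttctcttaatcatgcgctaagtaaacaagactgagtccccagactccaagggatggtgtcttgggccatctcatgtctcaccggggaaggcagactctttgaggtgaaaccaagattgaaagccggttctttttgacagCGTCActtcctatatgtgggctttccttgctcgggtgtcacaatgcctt
Egr2, chr10:67537793-67537822, plus strand: cagtCCATATATGGgcagcgaCGTCAcggg

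The windows of Nr4a2 and Nr4a3 each held 4 cores of the cyclic AMP response element, and so did that of Nr4a1, which has no value here. At least 1 core stood in 17.8% of all windows, and 4 or more stood in 0.137% (45 windows). The cutoff of 4 equals the count in the Nr4a windows, so this share is not an independent measure of their rarity. The complete element TGACGTCA was in none of the 12 windows searched and in 1.55% of all windows. The Nr4a2 window also held 1 Egr motif, found in 4.70% of windows. The Egr2 stretch, from 76 to 47 bases before 1 of its starts, is shown because it holds a CArG box, found in 1.47% of windows, and a core beside it. Not all Egr2 windows were alike: the one farthest upstream held none of the motifs, and another held a CArG box but no core. The Nfatc3 window shown held 1 core and no CArG box, and the window of its other start held none of the motifs. The Nr4a motif AAAGGTCA was in none of the 12 windows and in 1.34% of all. A match is a description of letters, not evidence that a factor binds there.

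Among the Egr factors, which are zinc finger proteins that bind GC-rich sites, Egr1 and Egr2 did not go the same way. Egr1, the immediate early member that is induced first, measured 13.12 in the library labelled CD4T and 13.33 in the library labelled iNKT. The difference of 0.21 was smaller than that SD between probes of 1 gene. Egr1 was thus far above the detection level in both libraries, by 5.29 and 5.50.

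Egr2, which restrains T cell activation and is needed for NKT cell development in mice, measured 10.25 and 8.61 in the same order. It was 3.10-fold lower in the library labelled iNKT, a difference of -1.63. Only 2.96% of the 6017 genes detected in both libraries had a more negative difference. The library labelled iNKT was nearer to the detection level, 0.78 above it, and any background still in the signal would understate a fold for such a dim probe. Egr3, the closest relative of Egr2 in function in T cells, measured 7.64 and 7.68, below the detection level in both libraries, so its direction could not be read. At the looser level of 7.63, set by a detection p under 0.05, Egr3 passed in both libraries and was not called.

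The Nr4a factors, orphan nuclear receptors whose activity follows their amount rather than a ligand, gave signals near the detection level. Nr4a2, also called Nurr1, measured 7.55 in the library labelled CD4T, below the detection level, and 9.02 in the library labelled iNKT. It was higher there by at least 2.28-fold, and the measured difference was 1.47. The values do not place Nr4a2 in the library labelled CD4T other than under the level.

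Nr4a3, also called Nor1, had 2 probes. The first (ILMN_1233670) measured 7.27 and 8.03 and passed the detection level in the library labelled iNKT by 0.20, which gives a bound of 1.14-fold and no call. The second (ILMN_1257794) measured 7.26 and 7.76, below the level in both libraries. Both probes were brighter in the library labelled iNKT, by 0.76 and 0.50, but values under the level have no order that can be relied on.

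Among the Nfat factors, Nfatc3 differed most. Nfatc3, which encodes NFAT4, a family member expressed in developing and mature T cells, measured 9.11 and 10.65. It was 2.91-fold higher in the library labelled iNKT, a difference of 1.54, and 96.3% of the genes detected in both libraries had a lower difference. Both values were detected, at 1.27 and 2.81 above the level.

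Nfatc1, which encodes NFAT2 and amplifies its own transcription after strong receptor signals in lymphocytes, had 6 probes, 3 annotated to the transcript NM_198429 and 3 to NM_016791. The 3 NM_198429 probes were detected in both libraries and all lay higher in the library labelled iNKT. Probe ILMN_2648455, the brightest, measured 11.53 and 12.33, a difference of 0.80 or 1.74-fold. Probe ILMN_1216522 measured 11.59 and 11.98, and probe ILMN_2648704 measured 9.51 and 9.99. Their mean difference was 0.55 (SD 0.215 over 3 probes), and none of them reached 2-fold.

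The NM_016791 probes of Nfatc1 disagreed among themselves. Probe ILMN_1224430 measured 8.22 and 8.08, a difference of -0.14. Probes ILMN_2647734 and ILMN_2647739 were undetected in the library labelled CD4T, at 7.27 and 7.19, and reached 8.05 and 8.49 in the other. Their bounds were 1.16-fold and 1.57-fold. In the non-normalized column of the sample labelled iNKT, these probes were undetected, with detection p-values of 0.897 and 0.465. Over all 6 probes, 5 differences were positive, with a range from -0.14 to 1.30 and a mean of 0.60 (SD 0.484). The probes share the 2 arrays and are no replicates of a sample.

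Nfatc2, which encodes NFAT1, the Nfat protein that resting T cells hold ready in the cytoplasm, was not detected by either probe. Probe ILMN_2626984 measured 7.33 and 7.68, and probe ILMN_3082773 measured 7.49 and 7.52. These signals say only that the probes were dim on these arrays.

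**Figure D2:**
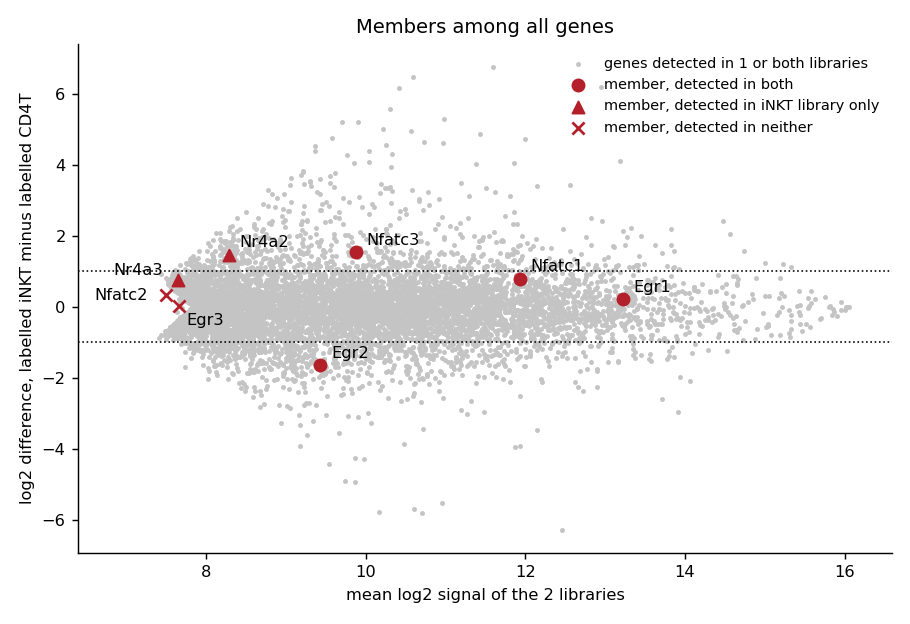
Log2 difference (y axis, labelled iNKT minus labelled CD4T) against the mean log2 signal of the 2 libraries (x axis) for the 7278 genes detected in 1 or both libraries (grey) and the 8 measured members (red), each at the probe with the highest mean signal. Dotted lines mark 2-fold. Nfatc3 and Nr4a2 lie above the upper line, Egr2 lies below the lower one, and Egr1 and Nfatc1 lie between the lines at the bright end.

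In the non-normalized table the called members differed little. The intensity of Egr2 was 1264 in the first column and 1178 in the second, a ratio of 0.932. Nfatc3 gave 586 and 637, a ratio of 1.09. Nr4a2 gave 201 and 220, with detection p-values of 0.0927 and 0.0526, so neither column passed the level there. After background correction and quantile normalisation of these intensities, the differences were -0.07 for Egr2, 0.19 for Nfatc3 and 0.29 for Nr4a2. None of these was called, the 2 columns being nearly equal, and only 1 of 6767 tested genes was called higher and 1 lower. Egr1 turned from 0.21 to -0.0050, and the 2 Nr4a3 probes gave 1.26 and -0.09, both undetected. For Nfatc1, probe ILMN_2648455 gave 0.09, ILMN_1216522 gave -0.06 and ILMN_2648704 gave 0.07.

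**Figure D3:**
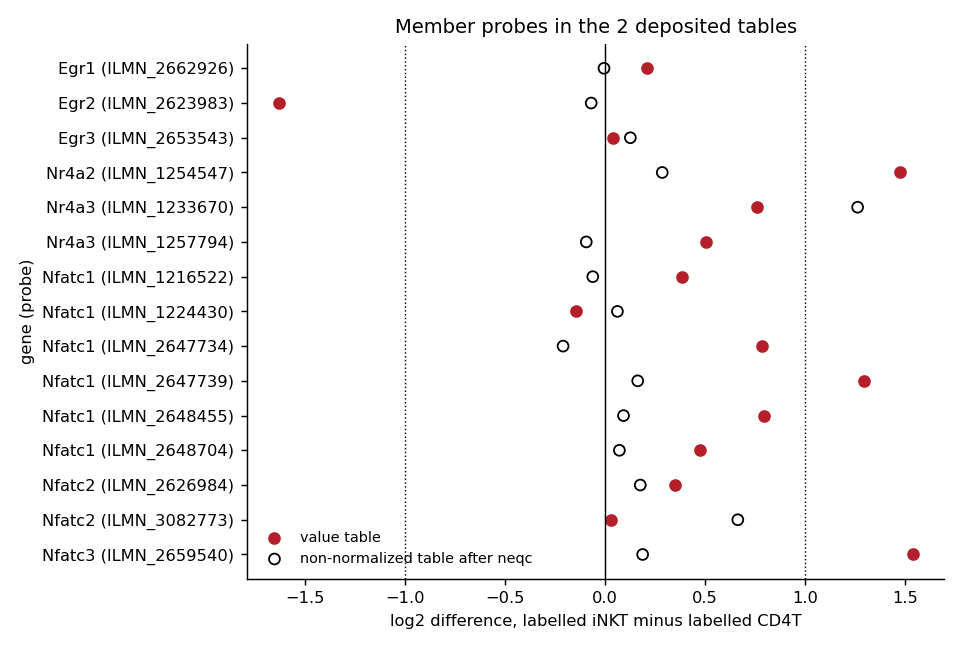
Log2 difference (x axis, labelled iNKT minus labelled CD4T) of each member probe in the value table (filled) and in the non-normalized table after neqc (open), with dotted lines at 2-fold. In the value table Egr2 lies at -1.63, Nr4a2 at 1.47 and Nfatc3 at 1.54, whereas the open points of these probes lie between -0.07 and 0.29.

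The genes that act around these factors were then described from 8 lists, each gene at its probe with the highest mean signal. The median difference over all 7278 genes detected in 1 or both libraries was -0.07. Of these genes, 9.37% were called higher and 10.3% lower, and no list was tested against these shares. Among regulators and relatives of the Egr factors, 1 of 6 tested genes was called higher and 1 lower, with a median of -0.32. Srf, the serum response factor that drives Egr transcription, measured 11.86 and 10.82, a difference of -1.04, while its other probe was detected only in the library labelled iNKT and was not called. Crem, a repressor and activator at cyclic AMP response elements, had 3 probes. The one with the highest mean was undetected at 7.76 in the library labelled CD4T and measured 9.004 in the other, a bound of 1.17 on the log2 scale, and the other 2 probes were not called. Nab2, the co-repressor that Egr proteins induce and bind, measured 8.39 and 8.04 and was not called.

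Genes known as Egr2 or Egr3 targets in mouse T cells split both ways. Of 14 tested, 5 were called higher and 3 lower, with a median of -0.48. Cdkn1a, the cell cycle inhibitor p21, was higher in the library labelled iNKT by at least 9.30-fold, at 11.05 against 7.33, and the bounds of its other 2 probes were 1.51 and 0.98 on the log2 scale. Nfil3, a transcription factor of innate lymphocytes, measured 8.85 and 11.78, a difference of 2.93, and Id2, an inhibitor of E proteins, differed by 1.58, with a second probe that was not called. Dgka, a diacylglycerol kinase that dampens receptor signals, measured 15.11 and 13.02, a difference of -2.09, while its 2 other probes differed by -1.93 and -0.37. Several of these genes have other regulators, and the list does not separate them.

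The upstream machinery was read from calcium entry, calcineurin and regulators of Nfat. Among 11 calcium entry and calcineurin genes tested, all detected in both libraries, 1 was called higher and 0 lower, near the 9.37% called higher over all genes, with a median of 0.07. That gene was Ppp3ca, a catalytic subunit of calcineurin, at 10.59 and 11.62 (a difference of 1.03), and its other probe went the opposite way at -0.94. Of the 4 Nr4a partners and co-regulators tested, 0 were called in either direction. Among Nfat inhibitors, kinases and relatives, 1 of 9 was called higher and 2 lower, with a median of -0.41.

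Within that last list, Rcan3, which encodes an inhibitor of calcineurin, measured 11.99 and 10.24, a difference of -1.75, and its other probe differed by -1.83. Gsk3b, a kinase that helps to drive Nfat out of the nucleus, measured 8.99 and 10.21, a difference of 1.21. Dyrk1a, another kinase that acts on Nfat, was lower in the library labelled iNKT by at least 2.20-fold. Rcan1, the calcineurin inhibitor that is itself induced by Nfat, differed by 0.47 and was not called, nor was Nfat5, the relative that responds to osmotic stress, at -0.75.

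Nfat target genes were higher more often than lower. Of 15 tested, 8 were called higher and 1 lower, with a median of 1.75. The median became 1.50 when genes detected in a single library were set to their bound. The interferon gene Ifng measured 8.22 and 14.97, a difference of 6.76, and Il4 was at least 38.3-fold higher. The chemokine gene Xcl1 measured 8.99 and 13.87, a difference of 4.88, and Fasl, a death ligand, differed by 2.88. The 1 gene called lower, at -2.44, was Ctla4, an inhibitory receptor that is named here because of its value. This list holds mostly cytokine genes that mark NKT cells, and it is not an independent readout of Nfat activity.

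Other readouts of recent T cell receptor signals were mixed. Of 15 tested, 5 were called higher and 1 lower, with a median of 0.25. Cd69, an early activation antigen, measured 14.43 and 14.07, and Cd5, whose level follows the strength of self recognition, measured 11.54 and 11.04, and neither was called. Bhlhe40, a regulator of cytokine production, measured 9.17 and 12.40, a difference of 3.23. Tnfrsf18, which encodes the costimulatory receptor GITR, differed by 2.56, Gfi1, a transcriptional repressor, by 1.19, and Tnfrsf4, which encodes OX40, by -1.19.

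Immediate early and stress genes, which cell sorting can also induce, gave 10 of 19 called higher and 0 lower, with a median of 1.08. These counts depend on the probe used for a gene. Klf4 was not called, at 0.29, but its other probes were higher by 2.38 and by a bound of 1.55. Btg1 was not called either, at -0.62, but another of its probes was lower, at -1.15. Fos, an AP-1 subunit induced as fast as Egr1, measured 13.95 and 14.19, a difference of 0.24 beside 0.21 for Egr1. Jun measured 9.77 and 10.68, a difference of 0.92. Hspa1a, a heat shock gene induced by stress, was higher by at least 64.0-fold, and Gadd45b, Nfkbia and Ier3 differed by 4.63, 3.44 and 3.22. Their summed linear signal was 292960 against 178405, and whether this moved with the members was not tested.

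**Figure D4:**
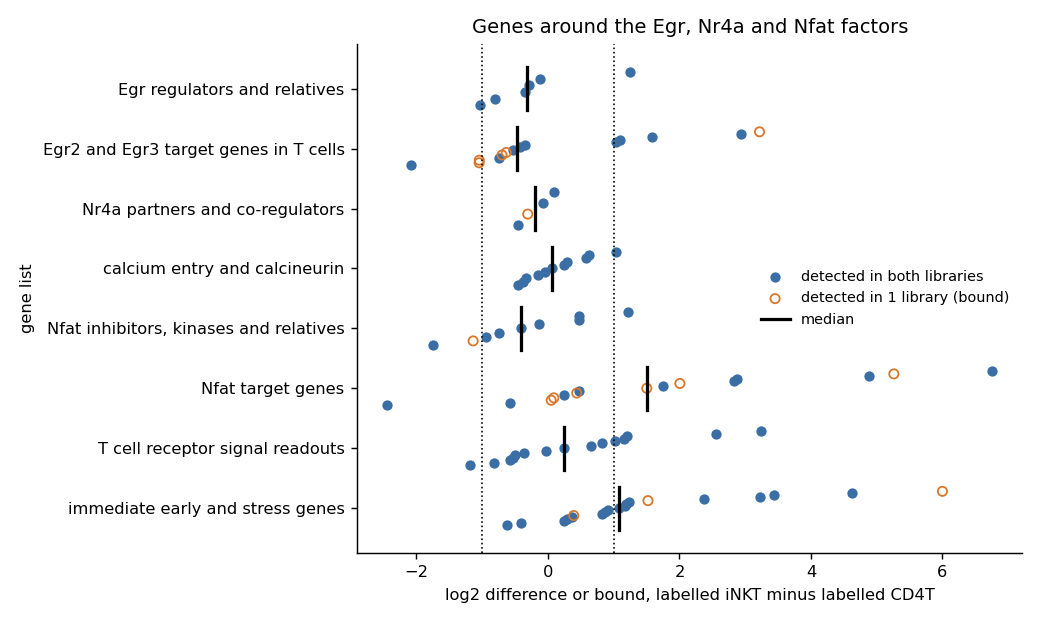
Log2 difference or bound (x axis, labelled iNKT minus labelled CD4T) of each tested gene in the 8 lists, with filled points for genes detected in both libraries, open points for bounds and black bars for medians. Dotted lines mark 2-fold. The medians with bounds run from -0.48 for Egr2 and Egr3 target genes to 1.50 for Nfat target genes.

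With only 2 libraries a pattern across samples is a single difference, so likeness was measured as the gap between log2 differences. The 3 genes nearest to Nfatc3 were Gdpd5 (1.54), Cyp4f16 (1.54) and Smad3 (1.54), and those nearest to Egr2 were Rictor (-1.63), Rapgef6 (-1.63) and Smad5 (-1.62).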

How the data were processed

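RNA of 2 sorted populations was read on Illumina bead arrays, 1 array each, with GenomeStudio 2009.2 per the submitters' processing notes. Groups came from the labelled cell type. The authors deposited a non-normalized table of probe intensity, each column followed by a detection p-value per the file headers, and a value table of log2 signals. The sources used here do not say how the log2 values were made. The sorted value columns were equal within 0.00025, as after quantile normalisation. The lowest value in the library labelled CD4T was 6.892, from which it was inferred that no background had been subtracted.

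Differences were taken per probe in the value table. Detection p-values exist only for the non-normalized table, so the level from the first column (7.83) was applied to both libraries and is an estimate for the library labelled iNKT. The value table was kept as the source because its columns carry the sample names and Nr4a1 is the 1 member missing there. Gene symbols came from the platform annotation: 11155 probes had 1 symbol, 0 had several and 711 had none, and 11149 had a gene identifier in RefSeq (GRCm38.p6). No build is named for the probes, so no probe or gene coordinates are given, and those of promoters are RefSeq's. A gene was represented by its probe with the highest mean signal, and was undetected only if all its probes were. Columns not mapped to a sample numbered 0.

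Up to 4 called genes of the largest size were named from each of the 8 lists, together with 8 genes whatever their values and the 3 genes nearest to 2 members. The text names a part of these. The members and lists were chosen with earlier results of these data known, and the lists share some genes. Motifs and the printed promoter stretches were chosen with the members' values known. The calling code was tested on simulated data. Alternatives, including neqc of limma 3.58.1 in R 4.3.3 with an offset of 16, are in the closing section.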

Additional observations from a re-analysis of the deposited data

How the results depend on the processing

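The counts of 2 members called higher and 1 called lower were the same at a detection p under 0.05, with no detection filter, with background subtracted, with differences centred on their median, with probes of a gene averaged and with the brightest probe in the library labelled CD4T. This says little of stability, because each called member (Nfatc3, Nr4a2 and Egr2) has 1 probe and its difference is untouched by the choice of probe or detection level. Member probes called higher numbered 3 with no detection filter and with background subtracted. With the non-normalized table after neqc, 0 members were higher and 0 lower, and 0 member probes were higher and 0 lower. That table holds nearly equal columns, and the cause of the disagreement was not tested. Over the alternatives the difference ran from -2.27 to -0.07 for Egr2 and from 0.19 to 1.93 for Nfatc3. For Nr4a2, undetected in the library labelled CD4T, no exact difference can be read. The values of -2.27 and 1.93 came with background subtracted, where 16.14% of all genes were called higher and 18.8% lower. Low signal over background limits Egr3, Nfatc2, Nr4a2 and Nr4a3. No paired analysis was possible because each group had 1 array, and no library could be left out.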
